A study of Mus musculus with 141 samples.

Results

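Expression of 9 transcription factors of adipocyte differentiation, Pparg, Rxra, Nr1h3, Cebpa, Cebpb, Cebpd, Klf15, Ebf2 and Zfp423, was examined across strains, strain families and both sexes. They were chosen by name as a list of adipogenic regulators, with earlier results of these data known. Their rows are 9 of the 36558 genes in the tables. The RNA-seq libraries are of inguinal white adipose tissue (iWAT), which the labels call subcutaneous adipose, from the Hybrid Mouse Diversity Panel, a collection of inbred mouse strains. Of 82 strains, 67 gave a female and 74 a male library, and by the labels no strain gave more than 1 of either. The study's methods state a slightly different number of matched strains and in places several samples per sex and strain, so whether a library stands for a single mouse was not settled here. Both sexes were present in 59 strains, only females in 8 and only males in 15. Each library is labelled with an inbred strain and names no transgene, and 1 strain with both sexes, BXD24/TyJ-Cep290<rd16>/J, is labelled with a mutant allele of Cep290. All mice were fed a high-fat, high-sucrose diet for 8 weeks from 8 weeks of age, so no group without the diet enters any comparison. The strains fall into BXD lines (from C57BL/6J and DBA/2J, named TyJ or RwwJ by their source), AXB/BXA lines (A/J and C57BL/6J), BXH lines (C57BL/6J and C3H/HeJ), CXB lines (BALB/cJ and C57BL/6J) and other inbred strains. Because a strain has 1 library per sex, the spread between strains holds the genotype, the mouse or mice sampled and the preparation together, and these cannot be told apart.

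Adipocytes arise from mesenchymal precursors through a cascade of transcription factors. C/EBPβ (Cebpb) and C/EBPδ (Cebpd) act early, and they are followed by PPARγ (Pparg) and C/EBPα (Cebpa), which maintain each other's expression and switch on the genes of the mature fat cell. PPARγ binds DNA as a partner of RXRα (Rxra), which also partners the liver X receptor LXRα (Nr1h3), a sensor of oxysterols. ZFP423 and EBF2 mark committed precursors, the former of white and the latter of beige and brown fat, and KLF15 is a zinc finger factor of glucose and amino acid metabolism that rises late in differentiation.

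In the GRCm38 annotation all are protein-coding genes. On the same chromosome lie Pparg (ENSMUSG00000000440, chr6:115360951-115490399, plus strand) and Klf15 (ENSMUSG00000030087, chr6:90462576-90475238, plus strand). Another chromosome holds Cebpb (ENSMUSG00000056501, chr2:167688915-167690418, plus strand), Nr1h3 (ENSMUSG00000002108, chr2:91184061-91202834, minus strand) and Rxra (ENSMUSG00000015846, chr2:27676440-27762957, plus strand). Each of the others stands on a chromosome of its own, namely Cebpa (ENSMUSG00000034957, chr7:35119293-35121928, plus strand), Zfp423 (ENSMUSG00000045333, chr8:87661810-87959595, minus strand), Ebf2 (ENSMUSG00000022053, chr14:67233292-67430918, plus strand) and Cebpd (ENSMUSG00000071637, chr16:15887286-15891031, plus strand).

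Of the 9 genes, 7 had entries among the 300-base windows around annotated starts in RefSeq (build GRCm38.p6). Cebpd and Ebf2 are named only. Windows of 4 genes are shown, those of Pparg, Cebpa and Klf15, whose levels rose and fell together across female libraries, and that of Zfp423, which had the largest sex difference of the 9. For Pparg, of 3 starts, the window is that of the start of the adipocyte isoform at chr6:115421816-115422115 on the plus strand. The windows of Cebpa (chr7:35119043-35119342, plus strand) and Klf15 (chr6:90462326-90462625, plus strand) are of their only listed start, and that of Zfp423 (chr8:87959546-87959845, minus strand) is of the outermost of 2. The values below are summed over all transcripts of a gene, so isoforms are not told apart. Capitals mark matches on either strand to the letters of a TATA box, a CCAAT box, a GC box, an E-box or a C/EBP core.
Pparg: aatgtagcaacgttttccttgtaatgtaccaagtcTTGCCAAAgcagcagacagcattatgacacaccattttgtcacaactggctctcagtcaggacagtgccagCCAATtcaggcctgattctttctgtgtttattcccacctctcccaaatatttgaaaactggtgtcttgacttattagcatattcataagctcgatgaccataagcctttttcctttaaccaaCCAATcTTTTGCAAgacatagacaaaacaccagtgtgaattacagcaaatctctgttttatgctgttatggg
Cebpa: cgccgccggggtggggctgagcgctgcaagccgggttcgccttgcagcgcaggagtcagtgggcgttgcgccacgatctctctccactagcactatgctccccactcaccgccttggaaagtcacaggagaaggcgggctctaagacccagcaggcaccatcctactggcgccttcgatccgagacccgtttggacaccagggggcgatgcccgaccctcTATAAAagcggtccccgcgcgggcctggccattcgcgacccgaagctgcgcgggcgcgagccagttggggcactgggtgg
Klf15: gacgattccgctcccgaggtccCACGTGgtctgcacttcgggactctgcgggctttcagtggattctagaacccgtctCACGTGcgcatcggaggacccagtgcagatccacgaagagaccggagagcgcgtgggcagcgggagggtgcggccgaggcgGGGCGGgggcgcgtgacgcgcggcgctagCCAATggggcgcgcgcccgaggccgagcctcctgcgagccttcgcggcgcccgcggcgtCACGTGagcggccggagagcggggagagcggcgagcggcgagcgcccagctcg
Zfp423: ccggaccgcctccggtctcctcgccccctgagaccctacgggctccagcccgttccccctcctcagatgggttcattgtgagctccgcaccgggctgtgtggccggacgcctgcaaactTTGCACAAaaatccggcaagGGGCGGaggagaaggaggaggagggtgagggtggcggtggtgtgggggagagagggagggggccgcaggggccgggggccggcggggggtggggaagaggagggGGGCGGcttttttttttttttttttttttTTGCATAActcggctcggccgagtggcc
The C/EBP core, searched as TTNNGNAA, matched 2 times in the Pparg window and 2 times in that of Zfp423, and 40.7% of all 32851 windows hold at least 1 match. Klf15 held 3 matches to the E-box letters CACGTG, which 7.15% of windows hold. A TATA box (TATAAA, in 13.6% of windows) was found in the Cebpa window. CCAAT (37.4% of windows) matched 2 times in that of Pparg and 1 time in that of Klf15, and GGGCGG (35.7%) matched 2 times in that of Zfp423 and 1 time in that of Klf15. AGGTCA, the single site of nuclear receptors (16.3%), and AGAACA, that of the glucocorticoid receptor (in 6233 of 32851 windows), were also searched, and neither matched in these 4 windows. The marked matches do not overlap each other, and a match is a string of letters, not a bound site.

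Estimated counts per library ranged from 6269154 to 78562648 (median 30233245). The median count of a member within a sex was between 195 (Cebpd, males) and 15779 (Cebpa, males), and the lowest count of any member in any library was 20, so all 9 were detected everywhere and all 9 passed the filter on low counts. Summed Y-linked expression went against the label in 3 libraries, the females of BXD34/TyJ and BXD69/RwwJ and the male of NZW/LacJ. Only NZW/LacJ is among the 59 matched strains. All 8 adipocyte markers had counts in every one of the libraries, with a summed level from 2406 to 22869 CPM (counts scaled to library size by TMM, per 1000000) in females and from 5160 to 22650 CPM in males. The sum of the 6 lymphocyte markers ranged more widely, from 5.06 to 1279 CPM in females and from 5.95 to 928 CPM in males. The female library of AXB12/PgnJ had the lowest adipocyte sum, 2406 CPM, and the highest lymphocyte sum, 1279 CPM, of all female libraries. In the library labelled male of NZW/LacJ, the adipocyte sum was the lowest among males, at 5160 CPM, the lymphocyte sum was 815 CPM, and the sum of the 9 mammary epithelial markers was 476 CPM, against a median of 2.52 CPM in males.

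On the TPM scale, which corrects for transcript length and so allows levels of different genes to be compared, Cebpa and Pparg stood above the other factors and Ebf2 and Cebpd below them. Cebpa had a median level of 245 TPM in females and 291 in males, and Pparg of 126.2 and 155 TPM. In each library, 67 female and 74 male, Cebpa was above Pparg. Nr1h3 followed with 37.8 TPM in females and 43.8 TPM in males, and Rxra with 29.4 and 36.8 TPM. Next came Cebpb (25.5 and 25.4 TPM), Klf15 (20.8 and 20.6 TPM) and Zfp423 (18.3 and 27.8 TPM). From Nr1h3 down to the lowest of these 5, neighbours in the order differed by less than the SD of the libraries in either sex. Zfp423 held the seventh place in females and the fifth in males. Ebf2 had 7.84 TPM in females and 10.4 TPM in males, and Cebpd, the lowest, 3.27 and 2.56 TPM. Ebf2 exceeded Cebpd in 64 of the 67 libraries from females and in 72 of the 74 from males. The shallowest library, the BXD34/TyJ female, gave the lowest female TPM of every member except Ebf2, for example 13.96 TPM for Pparg. Its place differed on the CPM scale, where it was the highest of the 67 females for Cebpb (54.5 CPM against 11.1 TPM), 60th from the lowest for Ebf2, 35th for Nr1h3 and 4th to 18th for the other 6, so for those 3 genes the low TPM did not hold on the other scale.

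**Figure D1:**
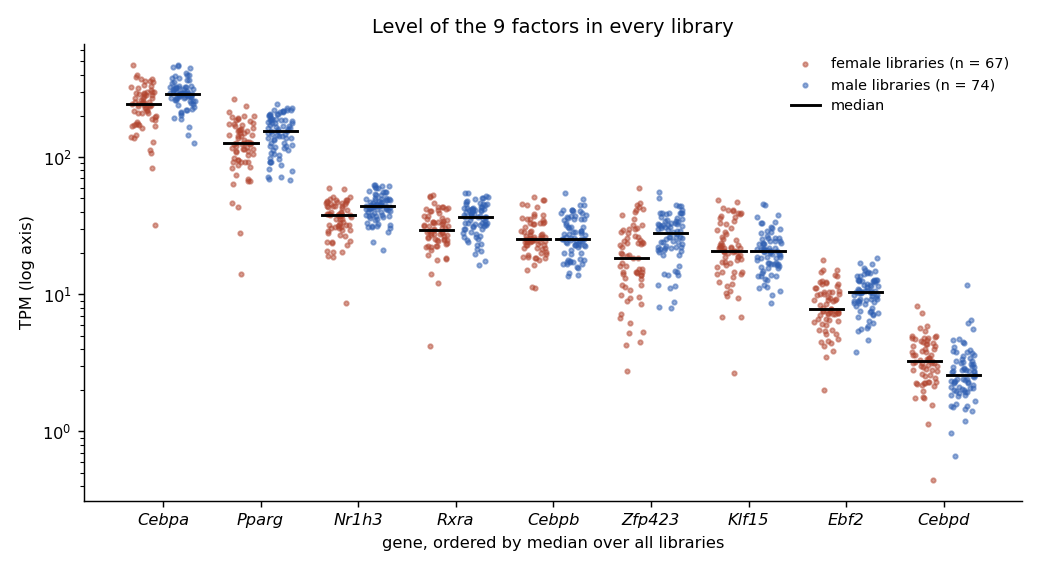
TPM of the 9 factors (log axis) in each of the 67 female and 74 male libraries, with black bars at the medians. Cebpa and Pparg lie above the rest, Cebpd lies lowest with medians of 3.27 TPM in females and 2.56 TPM in males, and the sexes overlap for every gene.

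The sex comparison asked whether the factors differ between the female and the male library of the same strain. In the 59 matched strains, 6 factors were lower in females (Zfp423, Cebpa, Ebf2, Pparg, Nr1h3 and Rxra, by 0.33 to 0.56 on the log2 scale) and Cebpd was higher by 0.31. Cebpb and Klf15 did not pass the test. These 7 of 9 calls are to be read against a background of 58.5% of all 16765 genes tested, of which 30% were lower and 28.5% higher in females (edgeR quasi-likelihood test in ~ Strain + Sex, adjusted p under 0.05). The median log2 fold change (log2FC, female vs. male) of the 9 was -0.37, and that of all genes was 0.011. The sexes overlapped for all 9 genes, so each difference is a shift of the distribution and not a separation. In bulk tissue, fewer cells of a type and less RNA per cell cannot be told apart.

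Among the nuclear receptors, Pparg, the lead regulator of fat cell genes, ranged in CPM from 24.5 in the AXB12/PgnJ female to 247 in that of BXD44/RwwJ, with a female median of 121.6. Males ranged from 69.95 (NZW/LacJ) to 256 (AXB5/PgnJ) with a median of 164. The NZW/LacJ male, named here and below, is the library whose Y-linked expression went against its label. The means were 131.5 ± 48.8 CPM in females and 165 ± 46.4 in males (SD, n = 59 each), with lower female values in 43 strains, and the log2FC was -0.38 ± 0.088 (SE, edgeR adjusted p = 2.20e-04). Its partner Rxra ranged from 68.1 (SJL/J) through a median of 115 to 217 CPM (129X1/SvJ) in females and from 82.97 (NZW/LacJ) through 155 to 220 CPM (129X1/SvJ) in males. Rxra had the most even sex difference of the 9, with lower female values in 51 of 59 strains and a log2FC of -0.33 ± 0.054 (edgeR adjusted p = 4.56e-07). Nr1h3 spanned 22.4 (SWR/J) to 95.6 CPM (CXB11/HiAJ) in females, median 46.3, and 25.4 (NZW/LacJ) to 107.9 CPM (CXB11/HiAJ) in males, median 60.7. It was lower in the female of 48 strains, with a log2FC of -0.37 ± 0.065 (edgeR adjusted p = 1.74e-06). In both sexes the same strain held the highest value of Rxra, and likewise for Nr1h3.

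The 3 C/EBP genes did not share a direction. Cebpa, the factor that with PPARγ keeps up the mature state, had female values from 125 (AXB12/PgnJ) through 398 to 852 CPM (129X1/SvJ) and male values from 237 (NZW/LacJ) through 536 to 998 CPM (BXD12/TyJ). Its means were 428 ± 168 CPM in females and 559 ± 154 in males (SD, n = 59 each), and it was lower in the female of 47 strains, with a log2FC of -0.43 ± 0.085 (edgeR adjusted p = 1.89e-05). Cebpb, an early factor that also responds to inflammation, ranged from 8.51 (CXB6/ByJ) through 22.6 to 52.1 CPM (BXD14/TyJ) in females and from 11.2 (I/LnJ) through 24.8 to 51.9 CPM (BXD56/RwwJ) in males. Females were lower in 33 strains and higher in 26, and its log2FC of -0.11 ± 0.075 did not pass (edgeR adjusted p = 0.196). Cebpd, the other early factor, ran the opposite way to Cebpa. Female values went from 4.49 (BXD86/RwwJ) through 8.19 to 15.6 CPM (BXA7/PgnJ) and male values from 3.62 (BXD14/TyJ) through 6.64 to 15.8 CPM (BXA2/PgnJ). Means were 8.60 ± 2.46 CPM in females and 7.11 ± 2.60 in males, with higher female values in 39 of 59 strains and a log2FC of 0.31 ± 0.074 (edgeR adjusted p = 2.95e-04).

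Klf15 showed the widest spread of the within-strain differences, with an SD of 0.79 on the log2 scale and no common direction. Its female values ranged from 8.81 (AXB12/PgnJ) through 29.6 to 89.04 CPM (CXB11/HiAJ) and its male values from 13.3 (BXD66/RwwJ) through 31.5 to 110.8 CPM (CXB11/HiAJ). Females were lower in 28 strains and higher in 31, and the log2FC was -0.066 ± 0.10 (edgeR adjusted p = 0.597). The commitment factors were both lower in females. Zfp423 had female values from 9.49 (AXB12/PgnJ) through 32.8 to 93.4 CPM (129X1/SvJ) and male values from 16.4 (NZW/LacJ) through 50.2 to 92.5 CPM (129X1/SvJ). Its means of 35.4 ± 16.96 and 49.1 ± 14.5 CPM (SD, n = 59 each) gave the largest log2FC of the 9, -0.56 ± 0.10 (edgeR adjusted p = 2.81e-06), with lower female values in 47 strains. Ebf2 ranged from 5.64 (AXB12/PgnJ) through 27.4 to 63.8 CPM (BXD75/RwwJ) in females and from 18.7 (BTBR T<+> tf/J) through 37.3 to 64.1 CPM (BXD43/RwwJ) in males. It was lower in the female of 41 strains, with a log2FC of -0.41 ± 0.091 (edgeR adjusted p = 1.06e-04).

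A pair of strains stood at the ends of these differences. In AXB12/PgnJ, the log2 ratio of female over male CPM was -3.001 for Pparg, -2.99 for Ebf2, -2.82 for Cebpa, -2.73 for Zfp423, -2.53 for Klf15 and -1.26 for Rxra, the lowest value of the 59 strains for each. The female of that strain is the library with the highest lymphocyte sum, and it had the highest macrophage sum of the females, 1168 CPM. Its Cebpd (10.7 CPM), Cebpb (29.1 CPM) and Nr1h3 (54.9 CPM) were above the female medians. In NZW/LacJ the library labelled female was above that labelled male by 1.67 for Zfp423, 0.96 for Nr1h3 and 0.84 for Rxra, the highest of all strains. Y-linked expression in the latter was 8.03 CPM, against its label, so these ratios may not compare the sexes. Without AXB12/PgnJ and NZW/LacJ together, the same test still gave 6 factors lower and 1 higher in females. BXD40/TyJ gave the highest difference for Pparg, Cebpa and Klf15, at 1.52, 1.01 and 1.70, and its male library had a lymphocyte sum of 915 CPM. Counted from the lowest CPM, its female stood 64th, 66th and 62nd of 67 for these genes. Its male stood 2nd, 12th and 8th of 74.

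**Figure D2:**
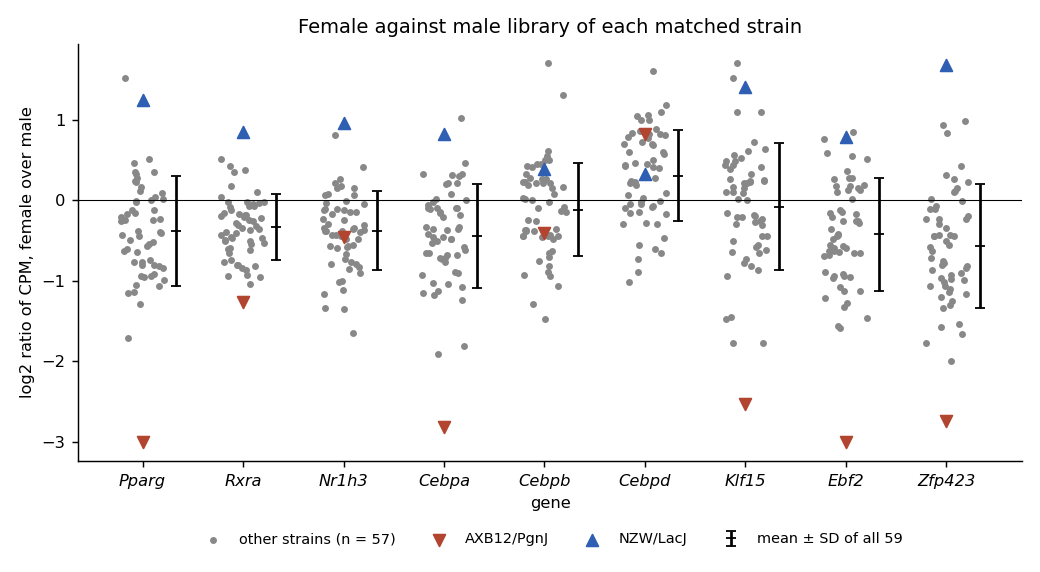
log2 ratio of female over male CPM for each factor, with 1 grey point per strain, AXB12/PgnJ as red and NZW/LacJ as blue triangles, and bars at the mean ± SD of all 59 strains. Most points lie below 0 for Pparg, Rxra, Nr1h3, Cebpa, Ebf2 and Zfp423 and above 0 for Cebpd, and AXB12/PgnJ lies lowest for 6 of the 9 genes.

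The level of fat cell markers moved with sex too. The mean log2 CPM of the 8 adipocyte markers was lower in females by 0.57 ± 0.80 (SD of the within-strain differences), and it was higher in the female of only 12 of 59 strains. With that score as a further term of the model, 2 of the 9 factors were called, where 49.4% of all genes were. They were Cebpd with a log2FC of 0.28 ± 0.091 (edgeR adjusted p = 0.00752) and Klf15 with 0.36 ± 0.081 (edgeR adjusted p = 1.57e-04), both higher in females. The other 7 lay between -0.081 (Rxra, edgeR adjusted p = 0.0602) and 0.054 (Cebpb, edgeR adjusted p = 0.626). Pparg, at 0.025 ± 0.061, and Cebpa, at -0.022 ± 0.050, had values close to 0 in that model. Several of the score's genes are themselves targets of PPARγ, so the score and the factors are not independent measures. With the lymphocyte score as the term in its place, chosen after seeing the data, the same number was called as without it, 6 lower and 1 higher. In that fit 60.1% of all genes were called, and Zfp423 had -0.45 ± 0.069 (edgeR adjusted p = 9.90e-08). The part of the cell composition in the sex differences was not tested beyond these values.

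**Figure D3:**
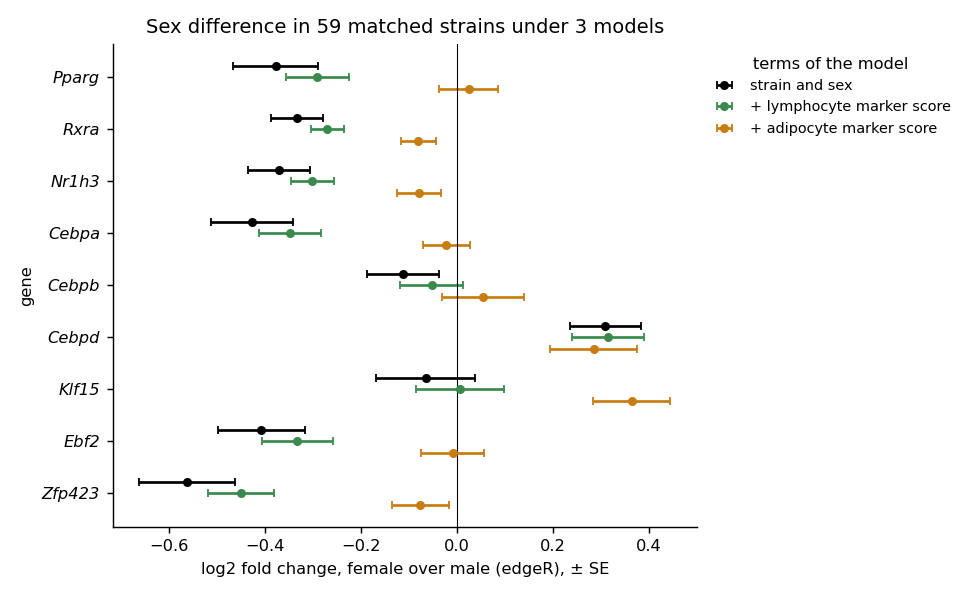
log2FC, female vs. male, ± SE of the 9 factors in 59 matched strains under the model with strain and sex (black), with a lymphocyte marker score added (green) and with an adipocyte marker score added (orange). With the adipocyte score, Pparg and Cebpa lie near 0, Cebpd keeps 0.28 and Klf15 stands at 0.36.

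The sex difference of BXD strains was compared with that of the other strains through an interaction term. The difference between both sets was largest for Klf15 (0.30 ± 0.21 on the log2 scale, BXD minus others) and Zfp423 (0.24 ± 0.20), and smallest for Rxra (0.042 ± 0.11). None of the 9 passed, with a lowest unadjusted p of 0.1504, and 0% of all genes passed (0 of 16765 by edgeR, with 393 at an unadjusted p under 0.05, and 0 by limma-voom). In the BXD strains alone, Pparg and Cebpd fell just outside the threshold, at log2FC -0.27 (edgeR adjusted p = 0.0676) and 0.25 (edgeR adjusted p = 0.0625).

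Paralogs and binding partners were described from a list of 11 genes, of which 10 were tested. Of these, 7 were lower and 2 higher in females, with a median log2FC of -0.25, where 30% of all genes were lower and 28.5% higher. Ebf3, a paralog of Ebf2, was lower in females at 44.99 against 61.5 CPM (log2FC -0.50), Rxrg, a paralog of Rxra, at 11.6 against 17.3 CPM (-0.57), and Ddit3, a C/EBP relative that blocks the other members, at 16.6 against 22.7 CPM (-0.45). Higher in females were Ebf4 (1.18 against 0.691 CPM, log2FC 0.74) and Rxrb (29.8 against 26.9 CPM, 0.15). The ubiquitous LXR gene Nr1h2 had 43.5 CPM in both sexes and did not pass.

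Target genes of the receptors were mostly lower in females. Among all genes, 30% were lower and 28.5% higher in females. Of 25 PPARγ targets, 19 were lower in females, 0 higher and 6 not called, with a median log2FC of -0.52. They were led by Plin4, a lipid droplet coat protein (2402 against 4280 CPM, log2FC -0.95), Cidec, which enlarges lipid droplets (1074 against 1640 CPM, -0.72), and the fatty acid carrier Cd36 (3450 against 5278 CPM, -0.68). Several of the 25 targets, Plin4 and Cidec among them, are also adipocyte markers, so these lists share genes. Of 10 LXR targets, 6 were lower and 1 was higher, with a median of -0.30. Pltp, the phospholipid transfer protein, was at 159 against 271 CPM (log2FC -0.78), the cholesterol exporter Abcg1 at 56.1 against 73.6 CPM (-0.48) and Apoe at 1056 against 1475 CPM (-0.46). The LXR target that was higher in females was Arl4c, at 63.9 against 47.9 CPM (0.65).

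Glucocorticoids induce Cebpd and Klf15 in fat cells. Of 12 genes of the glucocorticoid response, 8 were lower in females and 1 was higher, with a median log2FC of -0.40. Among all genes, 30% were lower and 28.5% higher. Zbtb16 (log2FC -0.64), Angptl4 (-0.64) and Fkbp5, a co-chaperone of the receptor (-0.55), were lower in females. Errfi1, a feedback inhibitor of the EGF receptor, was the gene higher in females, at 39.3 against 27.5 CPM (0.50), in 47 of 59 strains.

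Among 19 other regulators listed as promoting adipogenesis, 9 were lower and 5 higher in females, with a median log2FC of -0.16. Prdm16, the coregulator of beige fat, fell from 24.97 CPM in males to 15.3 in females (log2FC -0.76), followed by the PPARγ coactivator Lpin1 (-0.57) and Klf6 (-0.37). Klf5 (2.38), Stat5a (0.44) and Nfib (0.19) were higher in females. Of 15 regulators listed as restraining adipogenesis that were tested, 5 were lower and 5 higher, with a median of 0.0079, shares and a median near those of all genes (30% lower, 28.5% higher, 0.011). Gata3 (82.5 against 8.95 CPM, log2FC 3.70), Irx5 (2.85) and Irx3 (1.58) were higher in females, while Ccn5 (-0.63), the TAZ gene Wwtr1 (-0.50) and Gata2 (-0.30) were lower. Gata3 is also a factor of mammary luminal cells, and all 9 mammary epithelial markers were higher in females, led by Krt18 (160 against 5.63 CPM), Krt5 and Krt8. The summed level of these 9 ranged from 0.907 to 2176 CPM in females and from 0.285 to 476 CPM in males. The lowest female value is that of BXD69/RwwJ, whose Y-linked expression went against its label, and the next was 80.4 CPM, while the highest male value is that of NZW/LacJ and the next was 319 CPM. Of the 9, 8 were at 0 in at least 1 library, Krt8, Krt18, Krt14 and Krt5 among them. Their part in the values of Gata3, Klf5, Irx3 and Irx5 was not tested.

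The marker lists of other cell types differed in how many of their genes were called, where 30% of all genes were lower and 28.5% higher in females. Of 8 adipocyte markers, 7 were lower in females, led by Lep (log2FC -1.32), Plin4 and Cidec. All 5 endothelial markers were lower, led by Cdh5 (-0.58) and Tie1 (-0.52), as were 6 of 7 macrophage markers, led by Trem2 (-1.40). Progenitor markers were mixed, with 3 of 9 higher (Dpp4, 0.36, Pdgfra, 0.28, and Icam1, 0.26) and 2 lower (Col15a1, -0.56, and Cd34, -0.29). None of 6 lymphocyte and 4 tested skeletal muscle markers was called, and of 5 brown and beige markers only Elovl3 was (0.95).

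The strain comparison asked whether the female and the male of a strain resembled each other beyond the residual spread. Over the 59 matched strains, 5 of 9 factors differed between strains, against a background of 75.8% of all genes tested (edgeR quasi-likelihood F test of 58 strain coefficients, adjusted p under 0.05). Cebpb had the strongest signal (F = 2.63, edgeR adjusted p = 5.25e-04), and it was followed by Klf15 (edgeR adjusted p = 0.00835), Nr1h3 (0.0139), Rxra (0.0157) and Cebpd (0.0329). Zfp423 (edgeR adjusted p = 0.0549), Pparg (0.0765), Cebpa (0.0910) and Ebf2 (0.164) did not pass. The count moved with the libraries, the scaling and the terms used, and so did the share of all genes. Zfp423 passed under 7 and Pparg under 6 of 9 alternatives. Without AXB12/PgnJ all 9 passed, with 81.2% of all genes, and without NZW/LacJ 7 did, with 80% of all genes. With the adipocyte score as a term all 9 passed, with 87.8% of all genes. With library totals 7 passed, where 79.3% of all genes did, and on log2(TPM + 1) 7 did, where 66.3% did (limma).

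The level of a factor in the female of a strain was weakly related to that in the male. Cebpb had a Pearson r of 0.43 over 59 strains (permutation test, p = 0.00076, adjusted p = 0.00684 over the 9 relations computed) and a Spearman rho of 0.47 (permutation p = 0.00023, adjusted p = 0.00207). Its r was 0.41 without the 2 strains farthest from the female median, 0.58 within the 26 BXD strains and 0.28 within the 33 others. For the other 8 genes, r lay between 0.15 (Ebf2) and 0.30 (Nr1h3), with adjusted permutation p from 0.0542 to 0.267. The median r of all 16862 genes kept was 0.30. On log2(TPM + 1), 7 of 9 genes passed, and without NZW/LacJ 6 did, with r of Rxra at 0.38 and 0.36. The share of all genes that would pass was not computed in any of these settings. The median r of all genes is for log2 CPM over all 59 strains only.

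Families were compared within each sex. In females, 0 of 9 factors differed between the 6 families, where 19.3% of all genes did (edgeR quasi-likelihood test, adjusted p under 0.05). The lowest p was that of Cebpd (unadjusted p = 0.0204, edgeR adjusted p = 0.0838), the only member with an unadjusted p under 0.05 by edgeR, and limma-voom and DESeq2 also called 0 with 1 such member each. Female Cebpd had a median of 9.23 CPM in the 9 AXB/BXA libraries and 9.75 CPM in the 21 inbred ones, and of 7.68 CPM in the 23 BXD RwwJ and 6.49 CPM in the 3 CXB libraries.

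In males, 3 of 9 factors differed between families, with a background of 26% of genes. DESeq2 also called 3, with 24.1% of genes, and limma-voom called 2, with 13%, Cebpd not among them. Klf15 (edgeR adjusted p = 0.00268) had a median of 46.1 CPM in the 11 AXB/BXA libraries, with a range of 27.3 to 77.7, and of 29.8 CPM in the 23 inbred, 30.6 in the 22 BXD RwwJ and 30.7 in the 12 BXD TyJ libraries. It was at 14.2, 20.2 and 37.1 CPM in the 3 BXH males and at 22.9, 42.1 and 110.8 CPM in the 3 CXB males, so these small families overlapped the rest. Ebf2 (edgeR adjusted p = 0.00752) was low in all 3 BXH males, at 12.6 (BXH9/TyJ), 17.5 (BXH6/TyJ) and 23.7 CPM (BXH8/TyJ), and high in the 3 CXB males, at 39.9 to 58.8 CPM. Both of those families overlapped others, which had medians from 34.4 to 38.04 CPM. Cebpd (edgeR adjusted p = 0.00915) had medians of 7.68 CPM in AXB/BXA, 7.30 in inbred and 5.72 in BXD TyJ males, and the BXH6/TyJ male had the highest value of all libraries, 31.9 CPM. Without BXH6/TyJ the edgeR adjusted p of Cebpd was 0.04999. Without BXH9/TyJ that of Ebf2 was 0.0624, and with the BXH and CXB families left out, Klf15 alone passed (edgeR adjusted p = 0.0138), while Ebf2 had 0.367 and Cebpd 0.0580. All 3 BXH males had lymphocyte sums above the male median of 18.2 CPM. They were at 260 (BXH6/TyJ), 752 (BXH9/TyJ) and 928 CPM (BXH8/TyJ), the last being the highest among males. All 3 CXB males lay below that median, at 6.94 to 9.34 CPM. With the lymphocyte score as a term, chosen after seeing the data, Klf15, Ebf2 and Cebpd still passed, where 27.9% of all genes did. Between the BXH and CXB males alone, strain family and lymphocyte content cannot be told apart. The part of lymphocyte content in the family differences was not tested beyond these values.

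**Figure D4:**
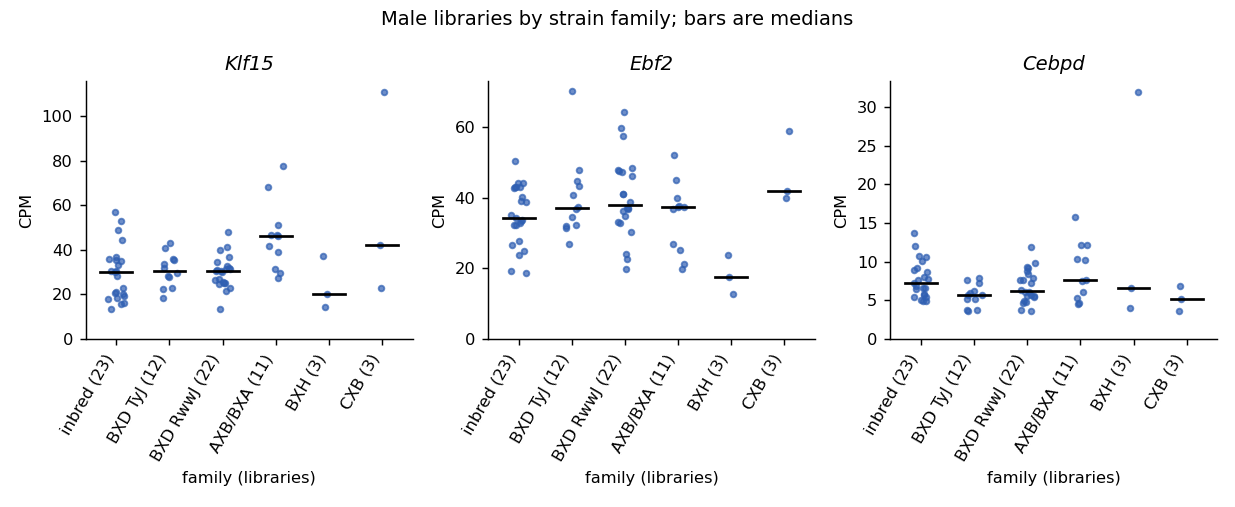
CPM of Klf15, Ebf2 and Cebpd in each male library by strain family, with the number of libraries in brackets and bars at the medians. Klf15 has its highest median in AXB/BXA (46.1 CPM), Ebf2 its lowest in BXH (17.5 CPM), and 1 BXH library stands at 31.9 CPM for Cebpd.

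The parents of the families are single libraries per sex, so their values have no replicate check. Klf15 was at 53.5 CPM in the C57BL/6J female and 34.9 in the male, and at 19.6 and 18.3 CPM in DBA/2J. Most BXD lines lay between these, with 4 of 32 females below both parents and 4 above, and 1 of 34 males below and 8 above. Cebpb showed the opposite order, at 13.5 and 21.4 CPM in C57BL/6J and 40.1 and 29.3 CPM in DBA/2J, with 1 of 32 BXD females below both and 5 above, and 11 of 34 males on each side. The BXD females include BXD34/TyJ and BXD69/RwwJ, whose Y-linked expression went against their label. BXD34/TyJ, the shallowest library, held the highest of these female Cebpb values (54.5 CPM) and a Klf15 below both parents (15.99 CPM). A/J had the highest Pparg of the 5 parents in both sexes (194 CPM in the female, 211 in the male), and the BALB/cJ female the lowest, at 54.6 CPM. Nr1h3 was at 50.7 and 75.5 CPM in the female and male of C57BL/6J and at 49.4 and 47.4 CPM in DBA/2J. Cebpa was at 425 and 404 CPM in the females of C57BL/6J and DBA/2J, and 31 of 32 BXD females lay outside that narrow range.

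Apart from Cebpb and Cebpd, the factors varied together across libraries, and every pair among those 7 passed in both sexes. Within females, 23 of 36 pairs were positively correlated at an adjusted p under 0.05, and within males 27 of 36 were, with 0 negative pairs in either sex (Pearson r of log2 CPM, permutation tests with 100000 resamples, adjusted over 72 relations). All points share their library's depth and scaling. The share of pairs of other genes that would pass was not computed. Whether the counts of passing pairs are particular to the factors was therefore not tested. The tightest pair in females was Pparg with Cebpa (r = 0.89, rho = 0.86, 0.86 without the 2 farthest libraries and 0.82 in the 32 BXD females). In males the same pair had r = 0.56 (rho = 0.50), and 0.32 in the BXD lines. The tightest pair in males was Zfp423 with Rxra (r = 0.87, rho = 0.77), and in females that pair had r = 0.81. Pparg and its partner Rxra had r = 0.83 in females and 0.76 in males, and Nr1h3 with Rxra had 0.73 and 0.65. For each of these 4 pairs in both sexes the permutation p of r was 1e-05, the smallest they can give, and the adjusted p was 2e-05.

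Cebpb was tied to fewer genes. It passed with 2 of 8 genes in females, Nr1h3 (r = 0.43, adjusted permutation p = 4.63e-04) and Cebpa (r = 0.35, adjusted permutation p = 0.00587), and with 6 in males, where Nr1h3 again was highest (r = 0.61). Cebpd passed with none of the 8 in either sex, and its r lay between -0.23 (Ebf2, females) and 0.19 (Zfp423, males). On log2(TPM + 1) its r with Rxra was 0.45 in females and 0.41 in males, so its r depended on the scale.

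**Figure D5:**
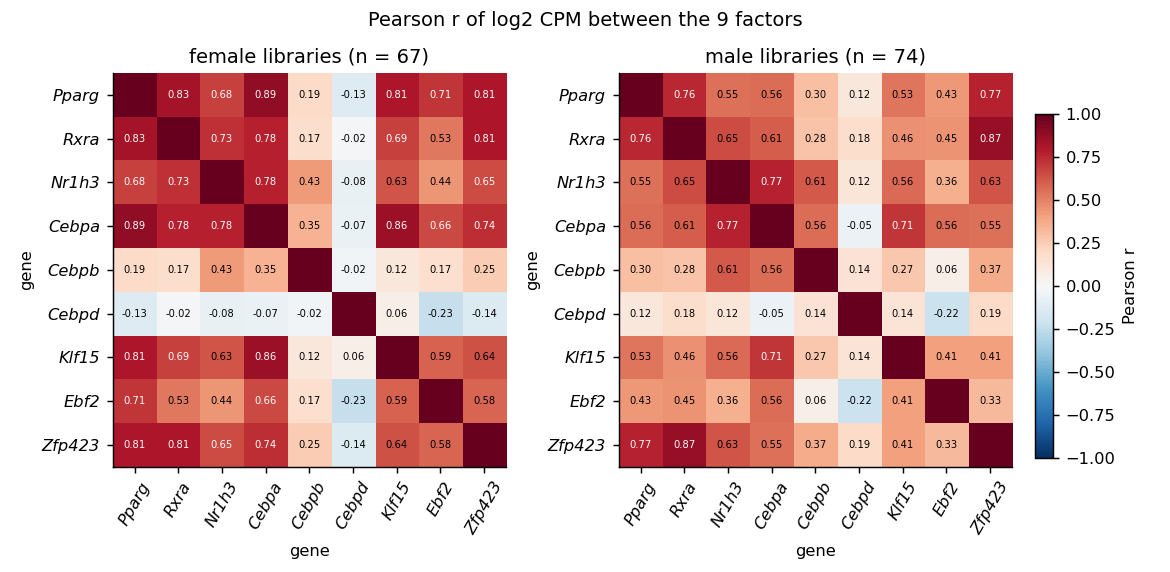
Pearson r of log2 CPM for all pairs of the 9 factors in 67 female (left) and 74 male libraries (right), from blue (-1) to red (1). A block of 7 genes is positive throughout in both sexes, while the row of Cebpd stays between -0.23 and 0.19.

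Relation to cell markers differed in the same manner between the members. With the adipocyte score, r ranged from 0.68 (Ebf2) to 0.89 (Pparg) in females and from 0.54 (Ebf2) to 0.77 (Cebpa) in males for 7 of the factors, all with adjusted permutation p = 4.36e-05. Cebpb had 0.21 and 0.26 and Cebpd -0.09 and 0.05, none of which passed. With the lymphocyte score, 8 of 9 factors had negative r that passed in both sexes, Cebpb included, from -0.44 (Cebpb) to -0.72 (Rxra) in females and from -0.37 (Cebpb) to -0.71 (Zfp423) in males. Cebpd had 0.10 and 0.013. For neither score was the share of all genes that would pass computed, so these counts are not particular to the factors. Endothelial markers went with Pparg (0.72 and 0.68), Rxra (0.70 and 0.65) and Zfp423 (0.69 and 0.68) more than with Cebpa (0.52 and 0.24) or Klf15 (0.44 and 0.15), as listed values whose differences were not tested. Progenitor markers had r = 0.47 in females and 0.42 in males with Ebf2, 0.36 and 0.34 with Zfp423, 0.32 and 0.36 with Rxra and 0.29 and 0.28 with Pparg. With Cebpa they had 0.11 and -0.065, and with Cebpb -0.31 and -0.22. Cebpb was the member with the highest r to the brown and beige markers (0.46 and 0.40).

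The genes most like each factor, by r of log2 CPM centred per sex over all libraries of both sexes among 16862 genes, are given as a description. For Pparg they were Ebf3 (r = 0.86), Dab2ip and Wwc2 (0.85 each), and Dab2ip was also the most alike to Rxra (0.87), before Card10 and Extl3. Cebpa was closest to the lipid droplet protein Plin1 (0.94), hormone-sensitive lipase Lipe (0.92) and Blcap (0.90). Klf15 followed Atl2 (0.80), Cebpa (0.80) and Ivd, an enzyme of leucine breakdown (0.79). Zfp423 was closest to Ehd2 (0.93), a protein of caveolae, Itga7 (0.92) and Rtn4rl1 (0.92), and Ebf2 to Zfhx4, Peli2 and the mitochondrial fusion protein Mfn2 (0.80, 0.80 and 0.79). Nr1h3 was most like Grina (0.88), Ptpa (0.87) and Mlf2 (0.85), and Cebpb like Tysnd1 (0.74), Ppp1r14b and 1110008P14Rik (0.72 each). Cebpd had the weakest neighbours, Errfi1 (0.65), the clock gene Per1 (0.57) and Slc10a6 (0.56), the first 2 of which are on the list of glucocorticoid response genes. On the log2 CPM scale the SD of the factors was 0.31 (Rxra, males) to 0.71 (Klf15, females), and the median SD of all genes was 0.50 in females and 0.42 in males.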

How the data were processed

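The iWAT libraries were stranded and paired-end. Reads were quantified by the authors with kallisto 0.46.1 (build mm10 in the submitters' processing notes) and summarised per gene with tximport. The estimated counts they deposited, of which 30.3% were not whole, were rounded here. The TPM, which the authors corrected for transcript length, sum to 1000000 per library and carry no depth. Symbols came from a GENCODE annotation of GRCm38 for 35856 of 36558 genes.

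Counts were scaled by TMM and filtered by filterByExpr. Tests used edgeR's quasi-likelihood fit (edgeR 4.0.16, R 4.3.3), with Benjamini-Hochberg adjustment over all genes tested and an SE derived from the log2FC and its F statistic. Strain was the block of the sex test, since the labels name each library's strain and mice of an inbred strain share a genotype. P-values measure the spread between these libraries. A prior count of 2 was used for log2 CPM. Marker scores are mean log2 CPM over a list. Alternatives used DESeq2 1.42.0 and limma 3.58.1, and correlations Python 3.11.15. The steps were tested on simulated counts. At the median depth 3 counts, the floor, are 0.0992 CPM (counting error only).

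The 9 members and all gene lists were chosen with earlier results of these data known. Named genes are the members, the 3 genes per list and direction with the largest significant log2FC and the 3 genes most correlated with each member. Named strains are the parents, those with the highest or lowest value of a member and, outside this rule, BXD24/TyJ-Cep290<rd16>/J, BXD69/RwwJ, BXH8/TyJ, AXB19a/PgnJ and AXB19b/PgnJ. Nr1h2 and Krt14 were named outside this rule, after their values were seen.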

Additional observations from a re-analysis of the deposited data

How the results depend on the processing

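Of the 18 alternatives to the sex test, 17 kept a count within 1.5 times the reported 7, and all 16 that neither added the adipocyte score nor were limited to BXD strains kept 6 factors lower and 1 higher. That includes the fit without the strain pairing (no replicate block), which called 7. With the adipocyte score as a term the count was 2, with 49.4% of all genes, and with the BXD strains alone it was 5, with 40.3%. Klf15, which is not called, changed sign to 0.039 with library totals, 0.030 with log2(TPM + 1), 0.028 with log2(TPM + 0.1), 0.022 with all libraries, 0.0062 with the lymphocyte score, 0.087 in BXD strains and 0.36 with the adipocyte score. With that score Pparg (0.025) and Cebpb (0.054) changed sign too. Library totals moved the median log2FC of all genes to 0.12, with 7468 genes higher and 2838 lower in females in place of 4774 and 5032. Relative to that median the 6 lower factors remained lower. On log2(TPM + 1) the split was 5325 and 2868.

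Of 9 factors, 9 differed between strains with the adipocyte score and 9 without AXB12/PgnJ, against 5 as reported. With limma-voom 4 did, where 61.7% of all genes did, against 75.8% in the reported fit. In females the family count went from 0 to 1 without AXB19a/PgnJ and AXB19b/PgnJ (Cebpd, edgeR adjusted p = 0.0482) and to 1 with the lymphocyte score (Nr1h3, 0.0301). It stayed at 0 when each BXH or CXB library was left out. In males it was 1 without the BXH and CXB families, and from 2 to 3 when each of their libraries was left out. A family left with 1 or 2 libraries is assumed to vary like the others. The count of factors whose female and male levels correlated was 7 on log2(TPM + 1) and 6 without NZW/LacJ, against 1. No share of all genes was computed beside these counts. Counts of correlated pairs, again without such a share, ranged from 24 to 27 in females and from 26 to 29 in males. The cause of these changes was not tested. The alternatives that leave out AXB12/PgnJ or single family libraries or that add the lymphocyte score were chosen after seeing the data. Cebpd, with a median of 195 counts in males, is the member whose values depth limits most, and 1 library per strain and sex leaves no measure of the spread between mice of a strain.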
